A study of Mus musculus with 12 samples.

Results

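The comparison described here asked what anti-Lag3 added to the messenger RNA of antigen-responding CD4+ T cells in mice whose PD-L1 was already blocked. Its members were the 3 libraries from mice given both antibodies (co-blockade, CB) and the 3 from mice given anti-PD-L1 alone, 6 of the 12 libraries of the study, and all 15138 mouse genes whose 12 libraries held 30 or more reads together, with the spike-in transcripts left out. The other 6 libraries, 3 from mice given isotype antibodies and 3 from mice given anti-Lag3 alone, entered the same fit and gave the reference levels.

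All 12 mice were of the Tg4 *Nr4a3*-Tocky *Il10*-GFP genotype. Tg4 is a T cell receptor (TCR) transgene specific for a myelin basic protein peptide, so most CD4+ T cells carried 1 receptor. The Tocky transgene makes a Timer protein when *Nr4a3* is transcribed, whose blue form matures into a red form, and the third allele marks *Il10* transcription with GFP. Every mouse received 4 mg/kg of [4Y]-MBP peptide under the skin, its antibodies 24 h later, and 0.4 mg/kg of the same peptide in the opposite flank 30 min after the antibodies. Spleens were taken 12 h after that. The anti-PD-L1 dose was 0.5 mg (clone MIH5). CB mice received anti-PD-L1 and anti-Lag3 (clone C9B7W) pooled 1 to 1, and whether that dose was kept for each antibody or shared between them was not given, so the anti-PD-L1 dose may not have been the same in the groups compared. The mice were male and female, typically in the second month of life. Cells were sorted as CD4+ and positive for both Timer forms, with CD4 stained in BUV395 for anti-PD-L1 and in PerCPcy5.5 for CB, and the stain and the treatment cannot be told apart. The sort was multiplexed over the treatments in batches of 4 samples, and which samples shared a batch was not given. The gate selects on *Nr4a3* transcription itself, and a difference in bulk RNA cannot tell fewer cells of a kind from less RNA per cell.

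Lag3 is an inhibitory receptor that binds peptide-loaded MHC class II, and PD-1 is an inhibitory receptor for PD-L1 that acts on the TCR and on CD28. Both appear on CD4+ T cells after antigen and lower the response to further antigen. An activated CD4+ T cell leaves quiescence, makes ribosomes, translation factors and chaperones, takes up nutrients, and lowers genes of the resting and recirculating state.

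Reads counted on genes lay between 17489767 and 22151025 in the anti-PD-L1 libraries and between 20190254 and 22010631 in the CB libraries. In all 12 libraries the spike-ins took 0.719% to 1.29% of counts, and 1 gene without a symbol took 14.3% to 21.9% of reads on genes. Levels are given as normalized read counts in CPM, scaled to the depth of each library, and since the libraries read the 3′ end of each mRNA, levels are compared between samples and not between genes. *Xist* was read in 2 of 3 mice and Y-linked genes in 1 of 3 in both the anti-PD-L1 and the CB group, so the groups compared held the same number of mice of each sex. Y-linked genes outweighed *Xist* in 2 of 3 isotype mice and in 1 of 3 anti-Lag3 mice. Comparisons with isotype were thus not balanced for sex. The 8 defining CD4 T cell genes were present in every library. Their summed level was 2620 to 2900 CPM with anti-PD-L1 and 2430 to 2520 CPM with CB (two-sided exact permutation test, p = 0.1, the smallest p that 3 mice against 3 allow). Summed B cell markers were 357 to 435 CPM with anti-PD-L1 and 329 to 409 CPM with CB, erythroid ones 171 to 217 and 150 to 198, CD8 T cell ones 24.6 to 30.5 and 25 to 33.2, NK cell ones 19.1 to 22.4 and 10.5 to 20.7, and platelet ones 0 to 3.31 and 0 to 1.83, and in each of these lists the groups overlapped. The B cell sum was mostly *Ighm*, at 344 to 412 CPM with anti-PD-L1 and 323 to 380 CPM with CB, and the CD8 T cell sum mostly *Cd8b1*. Among the thinly read B cell markers, *Ms4a1* was lower in CB and *Cd22* higher, each without overlap.

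With anti-Lag3 added to anti-PD-L1, 31 genes were higher and 25 were lower (edgeR's quasi-likelihood test, adjusted p under 0.05 over all genes), which is 0.370% of the genes tested, 0.205% higher and 0.165% lower. The genes that were higher in CB included genes of ribosome making, translation and protein folding, and the costimulatory receptor gene *Icos*. The genes that were lower included those of the cytoskeleton, of its calcium- and membrane-binding partners and of the lymphocyte surface, and the exchange factor gene *Rasgrp2*. The differences were modest in size, with a median of 1.49-fold among the genes that were higher and 1.52-fold among those that were lower. In all 56 called genes the 3 CB samples did not overlap with the 3 anti-PD-L1 samples, against 12.7% of all genes tested. In 28 of the 31 higher genes and 23 of the 25 lower genes, every CB sample lay beyond all 9 other samples of the study on that side, which held for 2.35% and 1.79% of all genes tested. The called genes were chosen for a difference in the CB samples, so that these counts follow in part from the choice. At an unadjusted p under 0.05 there were 1374 genes.

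**Figure D1:**
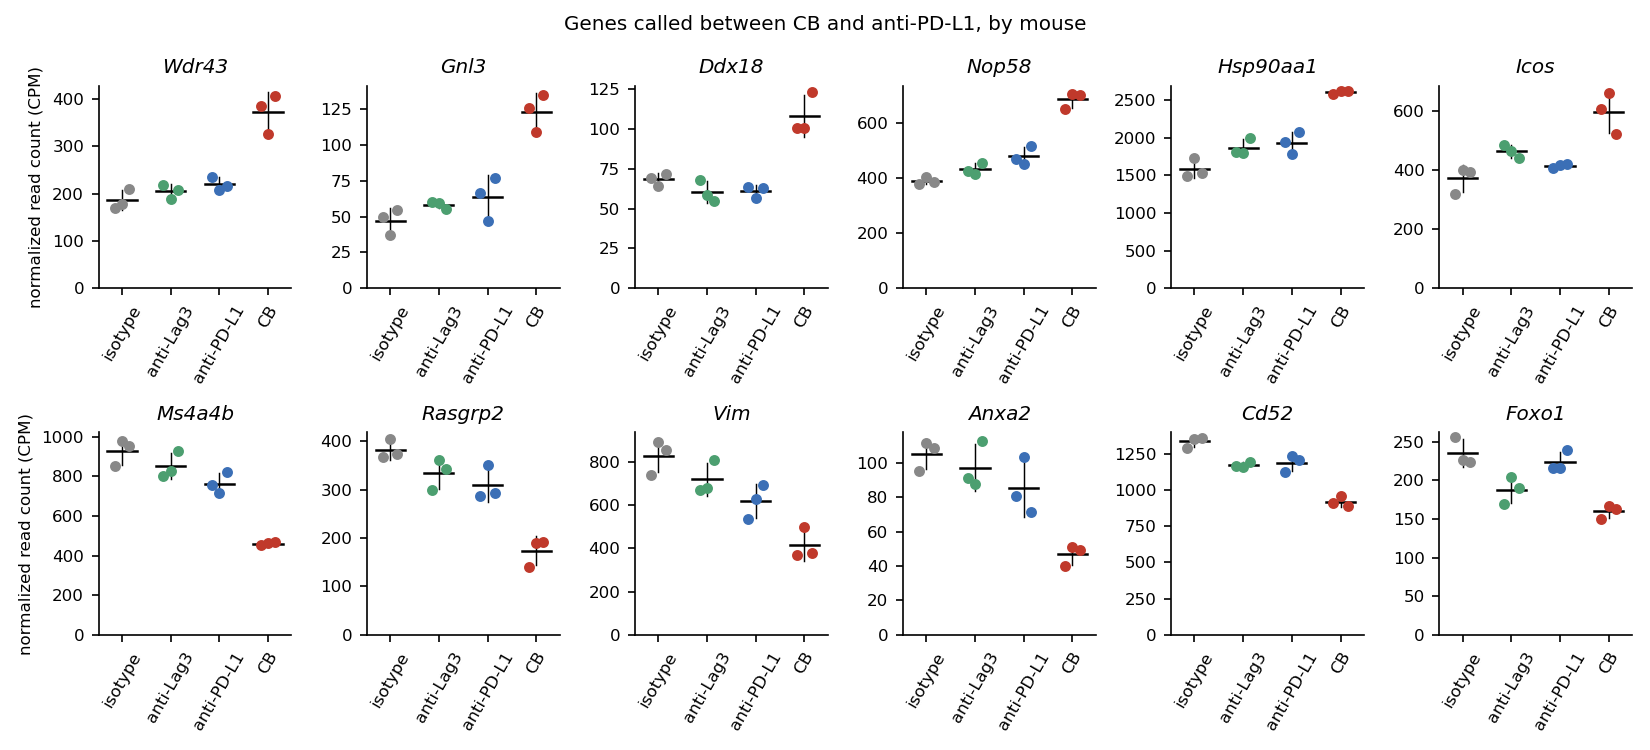
Normalized read counts (CPM) of 6 genes called higher and 6 called lower in CB against anti-PD-L1, with 1 point for each mouse, the group mean as a bar and the SD as a vertical line, in 4 groups of 3 mice. In each panel the 3 CB points lie apart from the 3 anti-PD-L1 points, and the anti-PD-L1 mean lies nearer to the anti-Lag3 mean than to the CB mean. Single anti-PD-L1 points can lie nearer to a CB point, as in *Vim*.

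Among the genes that were higher, a nucleolar one had the smallest p. *Wdr43* (ENSMUSG00000041057, chromosome 17 from 71615895 to 71659031 of GRCm38, forward strand) encodes a protein of the small-subunit processome, the particle that folds and cuts the precursor of 18S rRNA. It stood at 236, 207 and 216 CPM in the anti-PD-L1 mice and at 386, 327 and 408 CPM in the CB mice. No anti-PD-L1 mouse reached the lowest CB mouse, and the mean rose from 220 ± 14.6 to 373 ± 41.9 CPM (SD, n = 3), a log2 fold change of 0.76 (SE 0.11, adjusted p = 0.00149, edgeR). The isotype mean was 186 CPM and the anti-Lag3 mean 206 CPM. *Gnl3* (chromosome 14 from 31012433 to 31019152, reverse strand) encodes nucleostemin, a nucleolar GTPase. Its counts were 66.4, 46.6 and 77.2 CPM with anti-PD-L1 and 126, 109 and 135 CPM with CB. The groups were again apart, with a log2 fold change of 0.96 (SE 0.17, adjusted p = 0.0131, edgeR). *Gnl3* lies on the strand opposite to *Pbrm1*, which had more reads, and whether counting used strand was not given. *Pbrm1* itself differed by -0.12 (adjusted p = 0.779, edgeR).

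*Ddx18*, an RNA helicase of the nucleolus, stood at 63.6, 56.7 and 62.9 CPM with anti-PD-L1 and at 100.4, 100.5 and 123 CPM with CB (log2 fold change 0.82, SE 0.14, adjusted p = 0.0114, edgeR). Its isotype mean was 68.3 CPM, so that the anti-PD-L1 mean of 61.1 CPM was not on the way from isotype to CB. *Riok1*, a kinase of late small-subunit maturation, had 86.5, 73.6 and 75.9 CPM with anti-PD-L1 and 105, 142 and 129 CPM with CB (0.67, SE 0.13, adjusted p = 0.021, edgeR). *Nop2*, a methyltransferase of the large-subunit rRNA, had 57.4, 57.2 and 64.5 CPM with anti-PD-L1 and 99.5, 99.6 and 88.6 CPM with CB (0.68, SE 0.15, adjusted p = 0.04, edgeR). Together with *Wdr43* and *Gnl3* these are the 5 called among 67 ribosome assembly genes. The gene lists here and below were chosen with earlier results of these data known, so their counts and medians are descriptions and not tests. None of the 67 was called lower, 65 had a log2 fold change above 0 against 49.9% of all genes, and their median was 0.40 against 0 over all genes. In 32 of the 67 every CB mouse lay above every anti-PD-L1 mouse, which held for 6.94% of all genes.

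The small nucleolar ribonucleoprotein (snoRNP) genes behaved alike. These particles modify rRNA at sites their guide RNAs select. *Nop58*, a core protein of the box C/D particle that methylates rRNA, had 470, 452 and 518 CPM with anti-PD-L1 and 650, 706 and 705 CPM with CB (log2 fold change 0.52, SE 0.09, adjusted p = 0.00814, edgeR). *Dkc1*, the pseudouridine synthase of the H/ACA particle, had 428, 386 and 364 CPM with anti-PD-L1 and 577, 528 and 544 CPM with CB (0.48, SE 0.09, adjusted p = 0.0204, edgeR). *Nolc1*, a chaperone of both particles, had 174, 153 and 158 CPM with anti-PD-L1 and 264, 237 and 244 CPM with CB (0.62, SE 0.12, adjusted p = 0.0204, edgeR). In each of these genes the highest anti-PD-L1 mouse lay well below the lowest CB mouse. They are 3 of 20 in the list of snoRNP and RNA polymerase I genes, in which 19 of 20 lay above 0 with a median of 0.36. Of the next members by p, *Taf1d* differed by 0.50 (adjusted p = 0.134, edgeR). Outside the lists the called genes included *Gtpbp4* (0.59), a GTPase of large-subunit assembly, *Nsun2* (0.49), an RNA cytosine methyltransferase, *Fcf1* (0.43), a small-subunit processome protein, *Cebpz* (0.56) and *Gpatch4* (0.60), 2 further nucleolar proteins, and *Snhg1* (0.50), a host transcript of box C/D snoRNAs. The cytosolic ribosomal proteins, which are controlled mainly at translation, did not move with them. None of 66 was called, 37 lay above 0 and the median was 0.02.

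Translation factors gave 3 called genes of 29, all higher. *Eif5*, which triggers GTP hydrolysis once the start codon is found, had 306, 283 and 368 CPM with anti-PD-L1 and 482, 435 and 491 CPM with CB (log2 fold change 0.56, SE 0.10, adjusted p = 0.0131, edgeR). *Eif5b*, the factor that joins the subunits, had 620, 534 and 664 CPM with anti-PD-L1 and 742, 847 and 808 CPM with CB (0.40, SE 0.09, adjusted p = 0.0471, edgeR). *Eif3j1*, a loosely bound subunit of eIF3, had 121, 122 and 147 CPM with anti-PD-L1 and 175, 224 and 214 CPM with CB (0.65, SE 0.13, adjusted p = 0.0289, edgeR). It has a close copy, *Eif3j2*, with 1.85 CPM with anti-PD-L1 and 3.09 CPM with CB, and reads that fit both copies were not counted. Of the 29 factors 24 lay above 0, with a median of 0.22. *Denr* (0.53), which serves re-initiation, and *Metap2* (0.41), which removes the first methionine, were called outside the list. No aminoacyl-tRNA synthetase was called, though 18 of 20 lay above 0 (median 0.18), and *Mars* and *Rars*, with the smallest p in that list together with *Nars*, differed by 0.46 and 0.45 (adjusted p = 0.13 and 0.12, edgeR).

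Both cytosolic HSP90 genes were higher in CB. *Hsp90aa1*, the inducible form, had 1949, 1786 and 2071 CPM with anti-PD-L1 and 2587, 2623 and 2619 CPM with CB (log2 fold change 0.43, SE 0.07, adjusted p = 0.00814, edgeR). The 3 CB mice differed by little, with an SD of 20.1 CPM around 2610. *Hsp90ab1*, the constitutive form, rose from 9479 ± 391 to 11584 ± 750 CPM (SD, n = 3; 0.29, SE 0.06, adjusted p = 0.0204, edgeR), the smallest fold among the called genes at 1.22. Among 32 heat shock chaperones and chaperonin subunits these 2 were called, 28 lay above 0 and the median was 0.20. *Dnajc2*, a chaperone of the nascent chain, differed by 0.42 (adjusted p = 0.0981, edgeR).

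Metabolic genes gave 2 calls in the lists. *Srm*, spermidine synthase, had 78.6, 88.3 and 43.1 CPM with anti-PD-L1 and 166, 95.3 and 156 CPM with CB (log2 fold change 0.99, SE 0.20, adjusted p = 0.0254, edgeR). The lowest CB mouse was close to the highest anti-PD-L1 mouse. *Amd1* and *Odc1*, further enzymes of polyamine synthesis that were picked by their p in the same list, differed by 0.86 and 0.53 (adjusted p = 0.134 and 0.334, edgeR). In each of them too the CB mice lay above the anti-PD-L1 mice. In that list of 27 genes of one-carbon, nucleotide and polyamine synthesis 23 lay above 0, with a median of 0.14. *Hk2*, the inducible hexokinase, had 39.5, 33.4 and 51.2 CPM with anti-PD-L1 and 75.1, 71.6 and 85.1 CPM with CB (0.90, SE 0.21, adjusted p = 0.0495, edgeR), the single call among 19 glycolysis genes, of which 14 lay above 0 (median 0.16). Of 11 amino acid and nutrient transporters 0 were called and all 11 lay above 0 (median 0.29). *Slc3a2*, the heavy chain shared by amino acid exchangers, and *Tfrc*, the transferrin receptor, both differed by 0.53 (adjusted p = 0.275 and 0.384, edgeR). *Psmd7*, a lid subunit, was the call among 32 proteasome genes (0.42, adjusted p = 0.0443, edgeR), of which 27 lay above 0 (median 0.08). Of 37 genes of oxidative phosphorylation none was called, 15 lay above 0 and the median was -0.03.

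**Figure D2:**
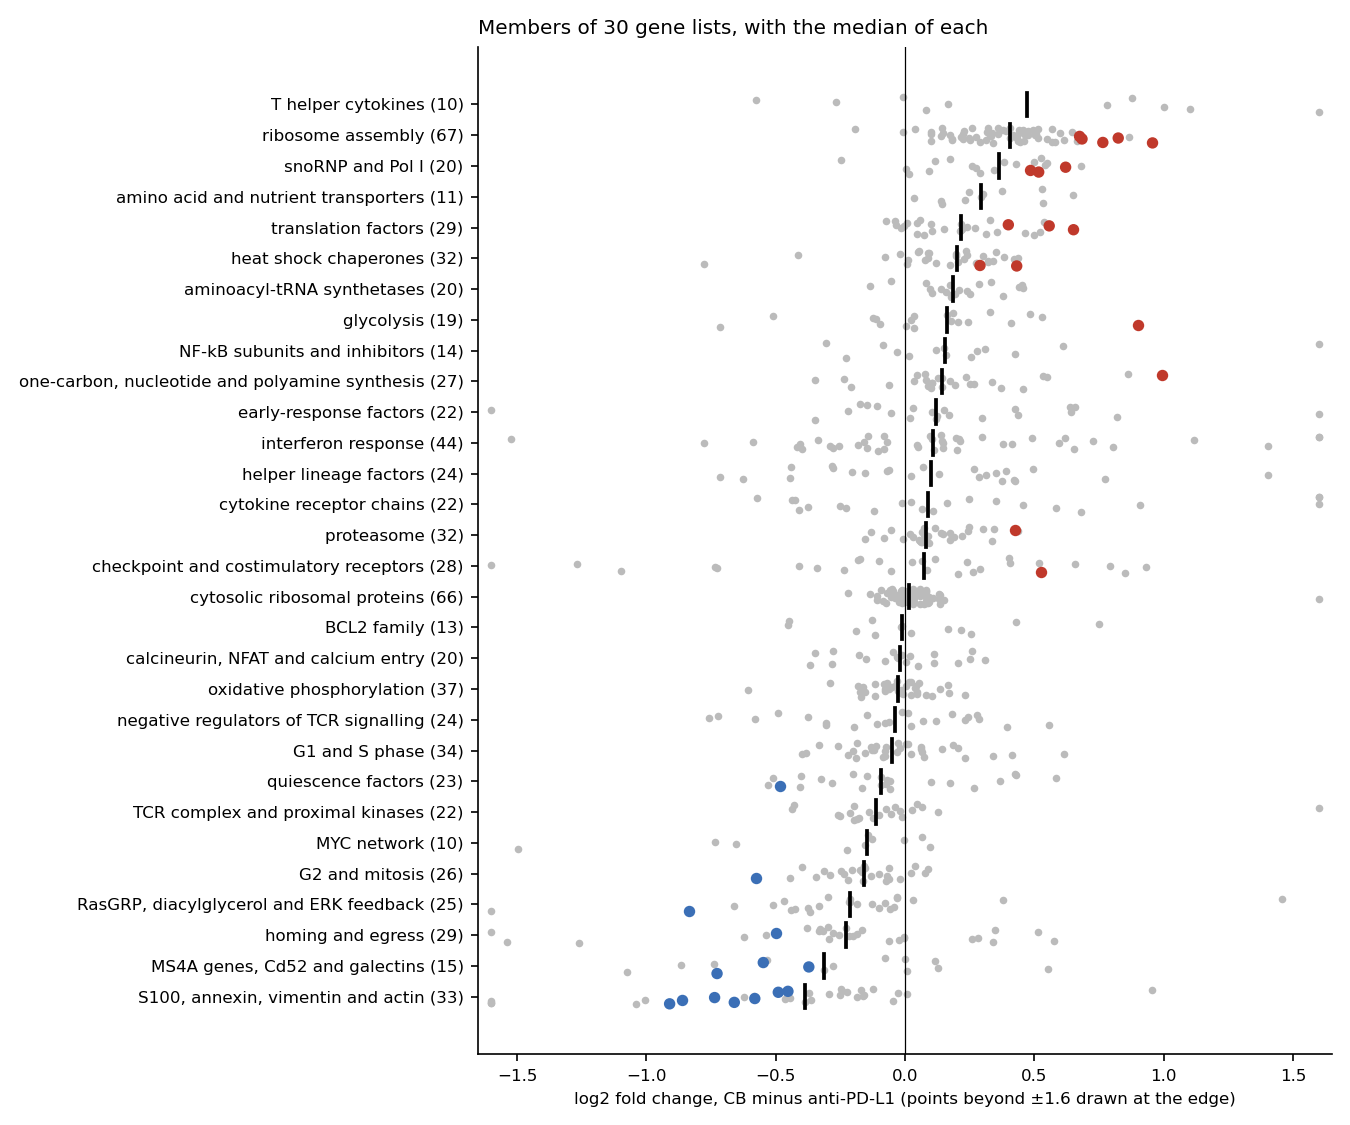
Log2 fold change between CB and anti-PD-L1 (x axis) of every tested member of 30 gene lists, with the number of members in brackets; red points were called higher, blue points lower and grey points not called, and the black bar is the list's median. Ribosome assembly, at a median of 0.40, and S100, annexin, vimentin and actin genes, at -0.39, lie on opposite sides of 0, and most cytosolic ribosomal proteins lie close to it.

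*Icos* (ENSMUSG00000026009, chromosome 1 from 60977927 to 61000320, forward strand), a costimulatory receptor of the CD28 family, was the single call among 28 checkpoint and costimulatory receptors. It had 407, 417 and 419 CPM in the anti-PD-L1 mice and 606, 663 and 522 CPM in the CB mice, a log2 fold change of 0.53 (SE 0.10, adjusted p = 0.0204, edgeR). The isotype mean was 372 CPM and the anti-Lag3 mean 464 CPM, so that among the single antibodies it was anti-Lag3 that gave the higher mean. *Tnfrsf4*, which encodes OX40, stood at 106, 75.3 and 93.7 CPM with anti-PD-L1 and at 125, 129 and 138 CPM with CB. The groups did not overlap, and the difference of 0.52 missed the threshold (adjusted p = 0.161, edgeR). Of the 28 receptors 16 lay above 0, with a median of 0.07.

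The targets and reporters of the model were not called. *Lag3* had 0.987, 6.56 and 6.96 CPM with anti-PD-L1 and 5.87, 11 and 9.32 CPM with CB (log2 fold change 0.85, SE 0.55, adjusted p = 0.612, edgeR). *Pdcd1*, which encodes PD-1, differed by 0.20 (SE 0.26), and *Cd274*, which encodes PD-L1, by 0.93 (SE 0.50, adjusted p = 0.561, edgeR). *Nr4a3*, whose reporter defined the gate, had 8.48, 28.3 and 23.7 CPM with anti-PD-L1 and 13.7, 16.2 and 31.4 CPM with CB (0.02, SE 0.33). *Il10* differed by 0.08 (SE 0.45). All 5 were thinly read or varied widely between mice of 1 group, with standard errors of 0.26 to 0.55, each larger than the 0.11 of *Wdr43*.

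No early-response transcription factor was called among 22. Over all genes 0.370% were called, so that a list with 0 calls, here or elsewhere, lies near that share. Such a count does not show that the genes of a list were unchanged. *Irf8* had 89.2, 95.3 and 86.9 CPM with anti-PD-L1 and 172, 104 and 145 CPM with CB (log2 fold change 0.64, SE 0.16, adjusted p = 0.0741, edgeR), and *Irf4* differed by 0.66 (SE 0.19, adjusted p = 0.148, edgeR). Both encode interferon regulatory factors that are induced by TCR signals. The 22 genes had a median of 0.12. Among 20 genes of calcineurin, NFAT and calcium entry 0 were called (median -0.02), and among 24 helper lineage factors 0, where *Gata3* differed by -0.63 (adjusted p = 0.109, edgeR) and *Maf* by 0.42 (adjusted p = 0.236, edgeR). Interferon response genes gave 0 calls of 44, with a median of 0.11, and *Gbp5*, an interferon-induced GTPase, differed by 1.12 (adjusted p = 0.0981, edgeR). There were also 0 calls among 10 T helper cytokine genes (median 0.47), 14 NF-κB subunits and inhibitors (0.15), 22 cytokine receptor chains (0.09), 13 BCL2 family genes (-0.01), 24 negative regulators of TCR signalling (-0.04), 34 genes of G1 and S phase (-0.05) and 10 genes of the MYC network (-0.15). *Il21*, a cytokine gene of help to B cells, had 10.1, 17 and 26.9 CPM with anti-PD-L1 and 35.4, 38.5 and 34.2 CPM with CB (1.0, SE 0.40, adjusted p = 0.417, edgeR). *Mxd4* and *Mxd3*, which encode partners of MAX that oppose MYC, differed by -0.74 and -0.65 (adjusted p = 0.117 and 0.199, edgeR).

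The gene with the smallest p in the comparison was lower. *Ms4a4b* (ENSMUSG00000056290, chromosome 19 from 11443553 to 11467055, forward strand) encodes a four-transmembrane protein of the lymphocyte surface. It had 755, 713 and 820 CPM in the anti-PD-L1 mice and 452, 464 and 467 CPM in the CB mice. The CB mice, with an SD of 7.83 CPM, lay below every other mouse of the study, and the other group means were 927 CPM with isotype, 852 CPM with anti-Lag3 and 763 CPM with anti-PD-L1. The log2 fold change was -0.73 (SE 0.08, adjusted p = 6.74e-05, edgeR). It belongs to a family of similar genes, and reads that map to several of them were not counted. Its relatives *Ms4a4c* and *Ms4a6b* differed by -1.08 and -0.32 (adjusted p = 0.0963 and 0.148, edgeR). *Cd52*, which encodes a short glycosylated peptide of the lymphocyte surface, had 1123, 1233 and 1207 CPM with anti-PD-L1 and 908, 958 and 888 CPM with CB (-0.37, SE 0.07, adjusted p = 0.0204, edgeR). *Lgals9*, galectin-9, had 144, 176 and 144 CPM with anti-PD-L1 and 105, 110 and 102 CPM with CB (-0.55, SE 0.11, adjusted p = 0.0299, edgeR). These are the 3 called of 15 in the list of MS4A genes, *Cd52* and galectins, of which 4 lay above 0. As the list was drawn up with earlier results known, this count is no support of its own.

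*Rasgrp2* (ENSMUSG00000032946, chromosome 19 from 6399340 to 6415216, forward strand) encodes a calcium- and diacylglycerol-regulated exchange factor that activates the small GTPase Rap1, which controls integrin adhesion. It stood at 286, 351 and 294 CPM with anti-PD-L1 and at 139, 190 and 193 CPM with CB, a log2 fold change of -0.84 (SE 0.12, adjusted p = 0.00141, edgeR). Every CB mouse was below every other mouse of the study, and the isotype mean was 382 CPM. It was the single call among 25 genes of RasGRP, diacylglycerol and ERK feedback, of which 3 lay above 0 (median -0.21). Next in that list came *Rasa3*, a GTPase-activating protein, at -0.66 (adjusted p = 0.0708, edgeR), *Spred1*, an inhibitor of Ras signalling, at 1.46 (adjusted p = 0.0979, edgeR) and *Dgka*, which converts diacylglycerol, at -0.42 (adjusted p = 0.103, edgeR).

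The list of 33 S100, annexin, vimentin and actin genes held 7 called genes, all lower. *Vim* encodes the intermediate filament vimentin and had 537, 629 and 693 CPM with anti-PD-L1 and 368, 497 and 378 CPM with CB (log2 fold change -0.58, SE 0.11, adjusted p = 0.0204, edgeR). *Anxa2* and *S100a10* encode the 2 parts of one membrane-binding complex. *Anxa2* had 80.7, 103 and 71.1 CPM with anti-PD-L1 and 39.8, 51.2 and 49.6 CPM with CB (-0.86, SE 0.16, adjusted p = 0.0131, edgeR). *S100a10* had 186, 213 and 222 CPM with anti-PD-L1 and 125, 138 and 130 CPM with CB (-0.66, SE 0.12, adjusted p = 0.0131, edgeR). In both partners the lowest anti-PD-L1 mouse lay above the highest CB mouse. *Crip1*, a LIM-domain protein, had 317, 521 and 338 CPM with anti-PD-L1 and 209, 233 and 263 CPM with CB (-0.74, SE 0.15, adjusted p = 0.0213, edgeR). *S100a6*, calcyclin, had 86.1, 139 and 118 CPM with anti-PD-L1 and 47.6, 67.2 and 67.4 CPM with CB (-0.91, SE 0.19, adjusted p = 0.0323, edgeR). The actin-binding genes *Lsp1* and *Flna*, which encodes filamin A, were lower by smaller amounts, -0.49 and -0.45 (adjusted p = 0.0471 and 0.0486, edgeR).

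None of the 33 was called higher, 2 lay above 0 and the median was -0.39. In 20 of the 33 every CB mouse lay below every anti-PD-L1 mouse, against 5.75% of all genes. *Cotl1* (-0.41), which binds F-actin, *Rcsd1* (-0.61), which regulates actin capping, and *Slc9a3r1* (-0.69), a membrane scaffold tied to ezrin, were called outside the list. Several genes of this list are abundant in myeloid cells. The summed level of 12 myeloid and dendritic cell markers was 69.0 to 90.6 CPM with anti-PD-L1 and 53.6 to 68.0 CPM with CB (two-sided exact permutation test, p = 0.1, the smallest possible). Most of it was *Cst3*, at 49.3 to 73.9 CPM with anti-PD-L1 and 43.0 to 60.1 CPM with CB, and *Cd14* was at 0 in all 6 libraries. *Lyz2* had 8.1, 6.2 and 9.3 CPM with anti-PD-L1 and 4.1, 3.8 and 3.2 CPM with CB, without overlap. *Siglech* went the other way, with 0, 0 and 2.59 CPM against 0, 0.87 and 2.63 CPM. The part of such cells in the lower genes was not tested.

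Genes of homing and of quiescence gave 1 call each. *Itgb7*, the β7 integrin chain of gut-homing T cells, had 257, 273 and 218 CPM with anti-PD-L1 and 165, 177 and 186 CPM with CB (log2 fold change -0.50, SE 0.11, adjusted p = 0.0443, edgeR). Of 29 homing and egress genes 6 lay above 0 (median -0.23), and *S1pr1*, the receptor that lets T cells leave lymphoid tissue, differed by -0.62 (adjusted p = 0.122, edgeR). *Foxo1*, a transcription factor of resting T cells, had 216, 215 and 239 CPM with anti-PD-L1 and 150, 166 and 163 CPM with CB (-0.49, SE 0.11, adjusted p = 0.0443, edgeR). It was the call among 23 quiescence factors, of which 7 lay above 0, and *Klf13* differed by -0.41 (adjusted p = 0.0855, edgeR). *Dapl1*, a gene of unstimulated T cells, had 135, 72.7 and 114 CPM with anti-PD-L1 and 58.8, 60.5 and 48.1 CPM with CB (-0.94, SE 0.19, adjusted p = 0.0238, edgeR), and its isotype mean of 199 CPM was the highest of the 4 groups. *Otulinl*, a relative of the deubiquitinase gene *Otulin*, had 45.0, 40.7 and 47.6 CPM with anti-PD-L1 and 22, 24 and 21.3 CPM with CB (-0.98, SE 0.19, adjusted p = 0.021, edgeR). *Cdc25b*, a phosphatase that starts mitosis, was lower too (-0.58, SE 0.12, adjusted p = 0.0322, edgeR), and of 26 genes of G2 and mitosis 4 lay above 0 (median -0.16). *Mki67* and *Top2a* differed by -0.31 and -0.25 (adjusted p = 0.315 and 0.334, edgeR). The 22 genes of the TCR complex and its proximal kinases held 0 calls and 5 members above 0 (median -0.11), beside the lower summed level of the CD4 T cell genes given above. Those CD4 T cell genes, such as *Cd3e*, *Cd4* and *Lck*, are largely of the same kind, so their sum is no separate result.

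The largest fitted changes among the called genes belonged to thinly read ones. *Capn3*, a calpain protease gene that overlaps *Ganc* on the same strand, had 13.8, 11.7 and 14.5 CPM with anti-PD-L1 and 2.04, 3.27 and 5.21 CPM with CB (log2 fold change -1.92, SE 0.43, adjusted p = 0.0461, edgeR). *Dhdh*, a dihydrodiol dehydrogenase gene, had 2 reads over the 3 anti-PD-L1 libraries and 164 over the 3 CB libraries, a ratio of 76.0 (95% interval 20.7 to 632, exact, counting error only). The non-coding *C030037D09Rik* had 0 reads with anti-PD-L1 and 186 with CB, at least 57.4-fold higher when 3 reads over the group are taken as the limit. Reads after PCR are not independent molecules, so that both limits cover counting error only. In the isotype mice *Dhdh* had 3.62, 2.22 and 4.08 CPM, and it was called in 0 of the 12 fits that left out 1 mouse. *C030037D09Rik* varied between mice of the other groups, with 1.96, 0.38 and 3.44 CPM with isotype and 0.40, 5.35 and 0.32 CPM with anti-Lag3.

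The anti-PD-L1 mean lay between those of isotype and CB in 24 of the 31 higher genes and in 21 of the 25 lower genes. The genes were picked on CB against anti-PD-L1, so CB as the outermost mean follows in part from that choice. No share over all genes is given for this order, and the counts are descriptions only. For 27 of the 31 and all 25, CB also differed from isotype in the same fit, in which 4.29% of genes did, 2.33% higher and 1.96% lower. These comparisons share the CB samples with the one described here, and the order of means shares the anti-PD-L1 samples too. The 4 genes without a call against isotype were *Riok1*, *Kctd5*, *Dhdh* and *C030037D09Rik*. *Kctd5*, a substrate adaptor of a ubiquitin ligase, had means of 24.6 CPM with isotype, 22.3 CPM with anti-Lag3, 11.8 CPM with anti-PD-L1 and 27.8 CPM with CB. From anti-PD-L1 to CB it rose by 1.23 (SE 0.26, adjusted p = 0.0299, edgeR).

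The same antibody given without PD-L1 blockade is the nearest comparison, and it shares no sample with CB against anti-PD-L1. Between anti-Lag3 and isotype 0 genes were called by edgeR's quasi-likelihood test (788 at an unadjusted p under 0.05, and 9 by DESeq2). Of the 31 genes called higher in CB, 25 also had a higher value in anti-Lag3 than in isotype, and of the 25 called lower 24 also had a lower value, against 53.7% with the same sign over all genes. Among genes with a mean of at least 10 CPM, which most called genes had, 59.7% had the same sign. The change was smaller in size without PD-L1 blockade in all 56. The median log2 fold change of the 31 was 0.57 with PD-L1 blocked and 0.14 without, and of the 25 it was -0.61 and -0.25. The members were picked on the first of these values, which makes it the larger one by selection, and the difference is tested only by the interaction. Over 7349 genes with a mean of at least 10 CPM, Pearson's r between both changes was 0.26, and over all 15138 genes it was -0.01 (Spearman's rank correlation 0.07), both given as descriptions since genes are not independent. *Dapl1* and *Nolc1* had values of 1 sign in both settings, -0.94 and -0.62 for *Dapl1* and 0.62 and 0.44 for *Nolc1*. *S100a6* had opposite signs, at -0.91 with PD-L1 blocked and 0.27 without.

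**Figure D3:**
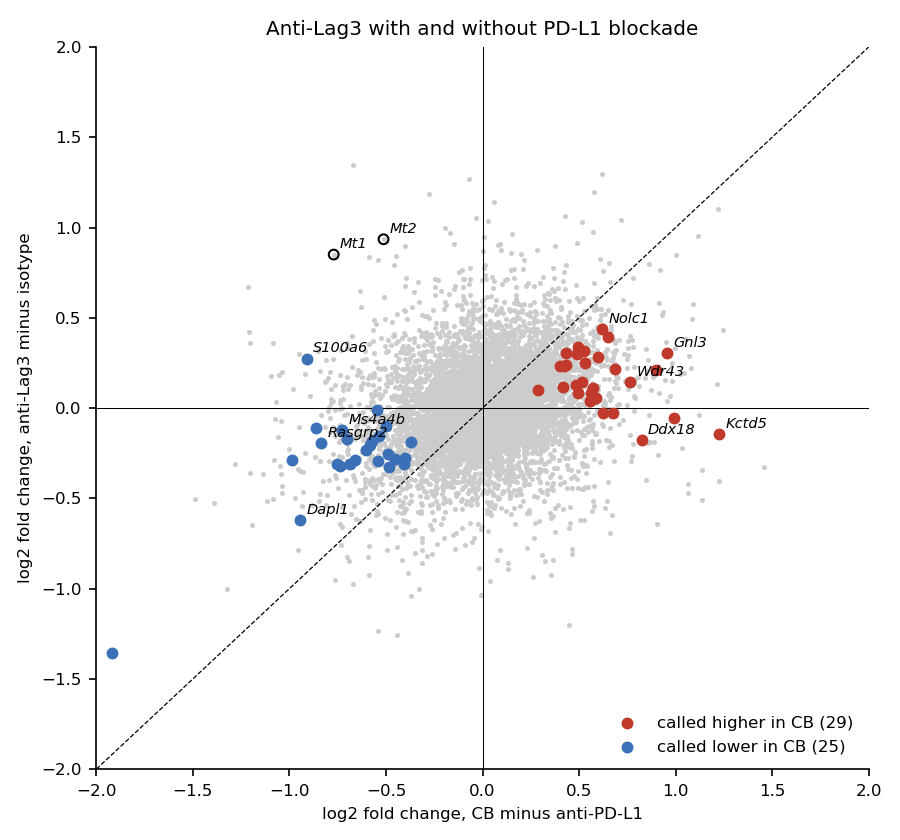
Log2 fold change between CB and anti-PD-L1 (x axis) against that between anti-Lag3 and isotype (y axis) for 7349 genes with a mean of at least 10 CPM; 54 of the 56 called genes are coloured, *Mt1* and *Mt2* are ringed, and the dashed line marks equal changes. Most coloured points have the same sign on both axes and lie nearer to 0 on the y axis, and *S100a6*, *Mt1* and *Mt2* lie above 0 on the y axis and below 0 on the x axis.

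The interaction, which tests whether the effect of anti-Lag3 differed with and without PD-L1 blockade, gave 0 genes by edgeR's quasi-likelihood test (898 at an unadjusted p under 0.05, lowest adjusted p 0.14). DESeq2 gave 5, which were *Mt1*, *Ms4a4b*, *Ddx18*, *Gm13840* and *4921525O09Rik*. With the sample number as a block, 4 genes passed, *S100a6* (-1.20, adjusted p = 0.00145, edgeR), *Mt1* (-1.65, adjusted p = 0.00145, edgeR), *Ms4a4b* (-0.60, adjusted p = 0.00989, edgeR) and *Mt2* (-1.52, adjusted p = 0.0158, edgeR). Without the block the adjusted p was 0.474 for *S100a6* and 0.187 for *Ms4a4b* (edgeR). Whether a gene's response to anti-Lag3 depended on PD-L1 blockade thus turned on the fit, and in simulated data of this design 34.5% of genes with a 2-fold interaction and at least 10 CPM were recovered. Over all levels and fold sizes, edgeR recovered 40 of 200 genes with a simulated interaction and called 12 genes without one. *Mt1* and its neighbour *Mt2*, metallothioneins that bind zinc and copper, were singled out after their values were seen. *Mt1* had 40.5, 27.3 and 58.3 CPM with isotype, 85.9, 68.7 and 72.9 CPM with anti-Lag3, 87.4, 107 and 80.4 CPM with anti-PD-L1 and 40.1, 65.5 and 55.6 CPM with CB. Each single antibody thus stood above isotype and CB stood below either of them, with an interaction of -1.62 (SE 0.30, adjusted p = 0.14, edgeR). *Mt2* gave an interaction of -1.45 (SE 0.32, adjusted p = 0.474, edgeR).

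How many genes were called depended on single mice. Without CB mouse 3 there were 4 calls, *Wdr43*, *Icos*, *Ms4a4b* and *Rasgrp2*. Without anti-PD-L1 mouse 2 there were 5, *Wdr43*, *Srm*, *Ms4a4b*, *Rasgrp2* and *Dapl1*. Without CB mouse 1 there were 15, without anti-PD-L1 mouse 1 there were 30, without CB mouse 2 there were 31 and without anti-PD-L1 mouse 3 there were 35. All 56 genes kept their direction in each of these fits. This was all but set beforehand, as their CB and anti-PD-L1 samples do not overlap. *Wdr43*, *Ms4a4b* and *Rasgrp2* were called in all 12 fits that left out 1 mouse, and each of the other 53 lost its call in at least 1. The median of ribosome assembly stayed between 0.32 and 0.45 and that of the S100, annexin, vimentin and actin genes between -0.45 and -0.39. Other list medians moved by over 1.5 times. That of translation factors was 0.11 without CB mouse 1 and 0.14 without anti-PD-L1 mouse 3. Glycolysis stood at 0.039 without anti-PD-L1 mouse 1 and 0.040 without CB mouse 2, and one-carbon, nucleotide and polyamine synthesis at 0.22 without CB mouse 2. RasGRP, diacylglycerol and ERK feedback stood at -0.11 without CB mouse 1, G2 and mitosis at -0.24 without CB mouse 1, and quiescence factors at -0.0034 without anti-PD-L1 mouse 3 and -0.18 without anti-PD-L1 mouse 2. The median of checkpoint and costimulatory receptors changed sign, from 0.07 to -0.045 without anti-PD-L1 mouse 1, and was 0.22 without anti-PD-L1 mouse 3. With sex as a covariate, an alternative added after the data were seen, 53 genes were higher and 52 lower, among them all 56.

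**Figure D4:**
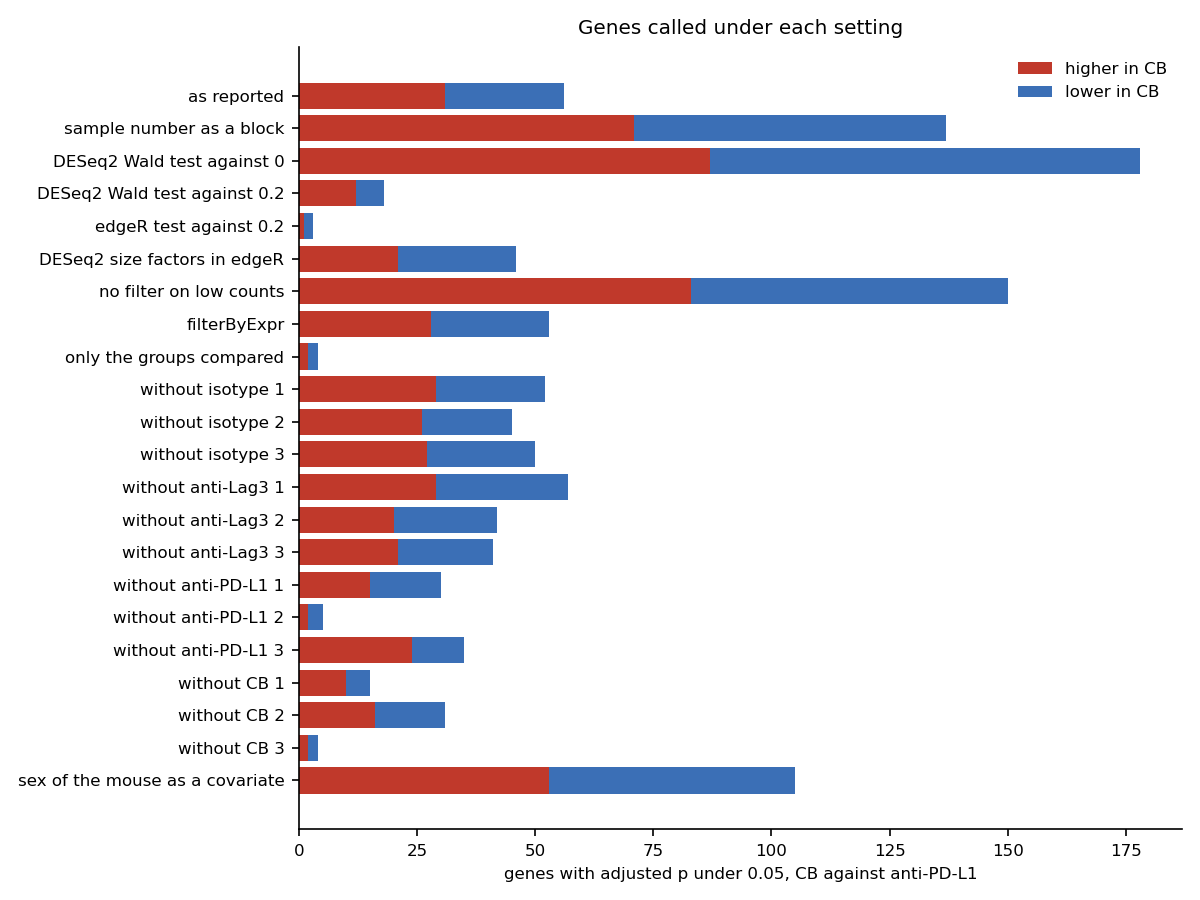
Number of genes called between CB and anti-PD-L1 (x axis) under each setting (y axis), split into higher in CB (red) and lower in CB (blue). The count is 56 as reported, 4 without CB mouse 3, 5 without anti-PD-L1 mouse 2 and 137 with the sample number as a block.

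Promoters of the called genes were read for 2 short motifs, CACGTG, the E-box that MYC and related factors bind, and GGAAAA, the core of NFAT sites, each on either strand. The windows ran from 250 bases before to 50 after the RefSeq start on GRCm38.p6, and 20 of the 31 higher genes, 20 of the 25 lower genes and 9883 of all genes tested had one. CACGTG was in 15% of the higher genes, 10% of the lower genes and 11.7% of all genes, and GGAAAA was in 15%, 20% and 23.9%. These shares lie near those of all genes, with 3 of the higher and 2 of the lower genes behind the E-box shares. *Myc* itself had 18.4 ± 7.5 CPM with anti-PD-L1 and 15.7 ± 1.31 CPM with CB (SD, n = 3; -0.22, SE 0.34, adjusted p = 0.944, edgeR). The stretches of 250 bases before the start are shown for 2 higher and 2 lower genes whose stretch lies outside the annotated gene or overlaps it by at most 5 bases, with matches in capitals. They show an E-box at position -60 of *Nop2*, GGAAAA on the reverse strand at position -118 of *Nolc1*, neither motif for *Ms4a4b*, and GGAAAA at position -159 of *Foxo1*, counted back from the start. All 4 lie on the forward strand, in this order at chr6:125131633-125131882, chr19:46075597-46075846, chr19:11443308-11443557 and chr3:52268087-52268336. They are examples, and matches are more frequent among them than among the called genes. Other stretches that meet the same rule, such as those of *Dkc1* and *Hk2*, hold neither motif.
Nop2: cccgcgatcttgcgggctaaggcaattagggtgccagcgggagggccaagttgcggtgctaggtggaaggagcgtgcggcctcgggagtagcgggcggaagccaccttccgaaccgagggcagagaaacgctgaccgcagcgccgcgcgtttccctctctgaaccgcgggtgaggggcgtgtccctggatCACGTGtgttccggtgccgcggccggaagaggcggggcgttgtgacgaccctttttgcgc
Nolc1: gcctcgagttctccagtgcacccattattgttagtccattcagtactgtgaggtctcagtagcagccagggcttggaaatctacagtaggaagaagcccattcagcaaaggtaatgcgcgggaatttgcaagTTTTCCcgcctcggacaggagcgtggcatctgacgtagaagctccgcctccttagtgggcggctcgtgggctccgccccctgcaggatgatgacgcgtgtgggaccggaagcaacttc
Ms4a4b: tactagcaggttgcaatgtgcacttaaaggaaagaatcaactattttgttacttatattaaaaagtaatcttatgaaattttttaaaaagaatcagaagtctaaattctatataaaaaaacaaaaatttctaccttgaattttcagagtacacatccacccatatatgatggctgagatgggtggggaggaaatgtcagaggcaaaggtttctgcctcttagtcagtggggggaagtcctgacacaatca
Foxo1: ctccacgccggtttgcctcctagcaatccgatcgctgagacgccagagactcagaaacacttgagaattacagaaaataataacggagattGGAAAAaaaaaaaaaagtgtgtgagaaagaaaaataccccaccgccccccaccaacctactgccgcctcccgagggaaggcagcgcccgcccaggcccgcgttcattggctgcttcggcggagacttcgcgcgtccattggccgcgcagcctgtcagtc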

How the data were processed

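RNA of sorted splenic CD4+ T cells was sequenced from 12 mice, 3 in each of 4 groups, with a 3′ mRNA kit without molecular identifiers. Per the labels, the authors trimmed reads with cutadapt 1.18, mapped them with STAR 2.6.1a to GRCm38 and counted them on genes with featureCounts 1.6.4. The annotation release and the strand setting are not given in the sources used here. The deposited counts are whole, unnormalized read counts for 56691 genes and 114 spike-ins; no columns were unused. A deposited table of rlog values was not used. Symbols and coordinates came from GENCODE for GRCm38, which named 52073 genes.

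Genes with at least 30 reads over 12 libraries were fitted in R 4.3.3 (edgeR 4.0.16, which calls limma 3.58.1) with TMM factors, 4 group means, no covariates, quasi-likelihood tests, Benjamini-Hochberg adjustment over 15138 genes and a threshold of 0.05. CPM divide each count by its library's TMM-adjusted size, and fold changes carry a prior count of 0.125. The interaction is CB minus anti-PD-L1 minus anti-Lag3 plus isotype. The comparison, the 30 gene lists (795 of 808 symbols tested), the markers, the motifs and the alternatives were chosen with earlier results of these data known. Every called gene could be named, with per-sample values for the 12 with the smallest adjusted p in each direction and for called list members, and at most 4 further members of each list by p. In simulated data for CB minus anti-PD-L1 (15138 genes), edgeR recovered 29.0% of genes changed by 1.5-fold, 65.5% by 2-fold and 90.6% by 4-fold at 10 CPM or more. Over all levels it recovered 64 of the 200 changed genes and called 14 unchanged genes beside them. DESeq2 recovered 64 as well and called 40 unchanged genes. No pair of libraries of a group was a duplicate (chi-square per degree of freedom at least 22.4). The labels describe 3 mice a group as biological replicates. Alternatives included DESeq2 1.42.0.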

Additional observations from a re-analysis of the deposited data

How the results depend on the processing

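Under every alternative tried, all 56 genes called between CB and anti-PD-L1 kept their direction. Their CB and anti-PD-L1 samples do not overlap, so leaving out 1 mouse could hardly have turned a sign. The other alternatives refit the same libraries, so the kept direction is no test of these genes. The counts of calls did not keep their size. Higher and lower genes numbered 71 and 66 with the sample number as a block, 87 and 91 by DESeq2 against 0, 12 and 6 by DESeq2 against a log2 fold change of 0.2, 1 and 2 by edgeR against 0.2, 83 and 67 without a filter on low counts, 2 and 2 when the fit held the 6 libraries alone, and 53 and 52 with sex as a covariate. DESeq2's size factors gave 21 and 25, and filterByExpr 28 and 25. Leaving out 1 mouse gave 2 to 29 higher and 2 to 28 lower genes. With only the 6 libraries compared, *Wdr43*, *Hsp90aa1*, *Ms4a4b* and *Rasgrp2* were called; against 0.2 in edgeR, *Wdr43*, *Ms4a4b* and *Rasgrp2*. The cause of these moves was not tested.

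Between anti-Lag3 and isotype, higher and lower calls were 7 and 2 with the block, 5 and 4 by DESeq2 against 0, 1 and 1 by DESeq2 against 0.2, 11 and 3 without a filter, and 0 to 1 and 0 with a mouse left out. For the interaction they were 0 and 4 with the block (*S100a6*, *Mt1*, *Mt2* and *Ms4a4b*), 1 and 4 by DESeq2 against 0, 0 and 2 against 0.2, 3 and 7 without a filter, 0 and 1 with sex (*Mt1*), and 0 and 0 to 2 without 1 mouse (*Mt1* and *Mt2* without isotype mouse 3).

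Values whose sign turned in some fit without 1 mouse were those of *Pdcd1* (-0.045 to 0.39), *Nr4a3* (-0.44 to 0.34), *Il10* (-0.24 to 0.44), *Myc* (-0.50 to 0.085) and the median of the checkpoint and costimulatory receptors (-0.045 to 0.22).

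Same-numbered samples of CB and anti-PD-L1 deviated from their group means with correlations of 0.02, -0.02 and 0.00 over all genes, and of 0.50, 0.05 and 0.17 over 3214 genes of at least 50 CPM, where 8 of the 12 samples correlated best with their own number. All 4 samples numbered 1 carried Y-linked reads. The paper describes an axis of its principal component analysis as largely an effect of the sort batches. Which samples shared a batch was not given, and the labels give the numbers no meaning, so pairing was not assumed. With the sample number as a block there were 137 calls, among them all 56. Genes such as *Lag3* and *Cd274*, at about 5 CPM with anti-PD-L1, were too thinly read for changes of 1.5-fold to be detected.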
